A study of Mus musculus with 2 samples.

Results

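Small nucleolar RNA (snoRNA) and small Cajal body RNA (scaRNA) genes with reads are described here in the RNA of Drosha knockout mouse embryonic stem cells. The genes were chosen by their reads: every gene of the GENCODE M21 biotypes snoRNA or scaRNA with at least 1 raw read summed over both libraries was taken. The rule gave 283 genes, of 1525 annotated snoRNA and scaRNA genes in the count files and of 43629 genes in all; a further 33 annotated genes were not analysed here. Because the reads chose the genes, how many there are and how many reads they hold are given as a description, with no test. The threshold passed through the densest stretch of the counts, with 49 genes at exactly 1 read just inside it and 1242 genes at 0 reads just outside it.

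The study sequenced poly-A RNA, prepared with the Illumina TruSeq RNA kit, in 2 libraries called B and A. Both are labelled Drosha knockout embryonic stem cells of 129/Ola strain background, from the blastocyst, at passage 7, grown untreated in serum with LIF, the cytokine that keeps mouse embryonic stem cells undifferentiated. Drosha is the nuclear ribonuclease that opens microRNA processing, and both libraries carry the knockout label, so no difference between genotypes can be read from them. The titles number the cells 2 for B and 1 for A while the source name is the same, and no label says that they were separate cultures, so whether B and A differ as lines or only as preparations cannot be told apart.

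snoRNAs guide the chemical modification of ribosomal RNA in the nucleolus. C/D snoRNAs (symbols Snord) direct ribose methylation by fibrillarin, H/ACA snoRNAs (symbols Snora) direct pseudouridylation by dyskerin, and scaRNAs (symbols Scarna) do the same for the RNAs of the spliceosome in Cajal bodies. Most are cut from the introns of a host gene after splicing, and the host is often a gene for a ribosomal protein, a translation factor or a nucleolar protein. The mature forms carry no poly-A tail, and in gene counts a mature snoRNA, its precursor and unspliced host RNA cannot be told apart.

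Printed here are the 3 genes with the most reads of all members and the C/D gene with the most, as GENCODE M21 gives their transcripts on GRCm38. They are shown because they carry the boxes that define the classes. Capitals mark the C box core TGATGA within the first 20 bases, the D box CTGA within the last 15 bases, and the box ACA standing 3 bases before the 3′ end, all searched on the transcript strand. Where C and D boxes were both found, a match to the ACA box was not marked. Beside a marked ACA box, a match to the D box was not marked either.
Snora73b (chr4:132352322-132352526, minus strand): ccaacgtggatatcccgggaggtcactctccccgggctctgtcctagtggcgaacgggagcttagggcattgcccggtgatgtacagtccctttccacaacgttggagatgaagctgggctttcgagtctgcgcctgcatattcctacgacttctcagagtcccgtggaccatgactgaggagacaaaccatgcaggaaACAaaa
Snora43 (chr2:26637847-26637985, minus strand): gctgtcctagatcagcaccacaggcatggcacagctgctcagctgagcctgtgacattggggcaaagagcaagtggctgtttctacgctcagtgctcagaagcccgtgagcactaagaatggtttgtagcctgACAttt
Gm23130 (chr10:23786470-23786543, minus strand): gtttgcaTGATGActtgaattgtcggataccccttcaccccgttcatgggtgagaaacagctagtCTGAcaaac
Snord83b (chr15:80078498-80078591, minus strand): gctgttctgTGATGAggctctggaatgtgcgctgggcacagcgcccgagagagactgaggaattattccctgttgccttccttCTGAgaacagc
Snora73b and Snora43 end in the ACA box, and Snord83b and Gm23130 hold both the C and the D box. The last bases of Gm23130 match the ACA box as well, and those of Snora43 match the D box. Among all 1558 annotated snoRNA and scaRNA genes, 19.9% hold both C and D boxes in these windows and 19.3% hold the ACA box. A further H box, ANANNA anywhere in the transcript, is in 91.8% of them and so hardly separates the classes. A match is a description of the letters and not a test of the class.

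The libraries held 42322129 counts in B and 29264632 in A, so that 3 counts, the limit a count of 0 allows, stand at 0.0711 CPM (counts scaled by library size) in B and 0.102 CPM in A. Intervals and such limits cover counting error only. The stem cell markers Pou5f1, Sox2, Nanog, Zfp42 and Esrrb all lay at 491 to 1179 CPM, and Drosha had 7023 counts in B and 4865 in A, a whole-gene count that does not show which exons were read. All 7 markers of feeder fibroblasts had counts, with a sum of 47.1 CPM in B and 51.1 CPM in A, mostly from Thy1 at 43.3 CPM. Of these, Col1a2, Col3a1, Dcn and Postn had 8 to 24 counts in B, against 22 to 51 in A, and were lower in B by the exact binomial test described further on. Of these 4, Col3a1 alone was also called by the exact test of edgeR with a coefficient of variation of 0.1, at an adjusted p of 0.0354. Neither test called Thy1, at 43.7 CPM in B and 42.9 CPM in A, or Col1a1, with 80 counts in B and 77 in A. Lum, with 3 counts in B and 5 in A, had too few to be tested. The part of fibroblast RNA in the snoRNA values was not tested, and in bulk RNA fewer cells of a kind and less RNA per cell cannot be told apart.

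The 283 members held 11813 of the counts in B and 8144 in A, which is 0.0279% of the total in B and 0.0278% of that in A. On the scaled counts this came to 278.7 ± 1.58 CPM (SD, n = 2). The members were thus a minute fraction of both libraries, of similar size in each. The median member had 11 reads over both libraries, with an interquartile range of 3 to 55.5. Only 150 members reached 10 reads, 53 reached 100 and 8 reached 500. The 10 members with the most reads held 36.0% of all member reads, and 19 members held 50%. Reads were found in both libraries for 213 members, in B alone for 49 and in A alone for 21, and no gene seen in 1 library alone had more than 7 reads. By level, 59 members reached 1 CPM in both libraries.

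The H/ACA class held 26 members among 41 Snora genes in the files, a share of 63.4% with a 95% Clopper-Pearson interval of 46.9 to 77.9%. The C/D class held 48 of 97 Snord genes, or 49.5% (39.2 to 59.8%). Among the Snord genes are 17 copies of Snord116, none with a read, so the C/D share is higher without them. The scaRNA class held 5 of 9 Scarna genes, or 55.6% (21.2 to 86.3%). Genes with other symbols, nearly all of them Gm numbers, were the largest pool, with 204 members of 1378 genes, or 14.8% (13.0 to 16.8%). For comparison, 18.6% of all snoRNA and scaRNA genes in the files had a read. Both this share and that of the other symbols count genes inside the host Snhg14, described further on, where none of 208 genes had a read. These shares come from the reads that chose the members and are not compared by a test, and that of the scaRNAs rests on 9 genes.

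The summed level of the H/ACA class was 66.0 CPM in B and 66.6 CPM in A, with a mean of 66.3 ± 0.406 CPM (SD, n = 2). The C/D class summed to 56.9 CPM in B and 58.8 CPM in A, a mean of 57.8 ± 1.38 CPM. The scaRNA class summed to 0.829 CPM in B and 0.784 CPM in A, a mean of 0.807 ± 0.0319 CPM. Both snoRNA classes thus summed far above the scaRNAs in each library, over unlike numbers of members. The median member had 92.5 reads over both libraries in the H/ACA class, 35.5 in the C/D class and 11 in the scaRNA class. The leading gene held 20.4% of the reads of the H/ACA class, 11.6% of those of the C/D class and 37.9% of those of the scaRNA class. Without Snora73b the H/ACA sum was 52.8 CPM, without Snord83b the C/D sum was 51.1 CPM, and without Scarna13 the scaRNA sum was 0.525 CPM. The members with other symbols summed to 156 CPM in B and 151 CPM in A, more than the 3 named classes together. By GENCODE biotype, where 41 genes are scaRNA, 20 of these had a read and they summed to 3.34 ± 0.237 CPM, so the Scarna symbols cover only part of the annotated scaRNAs.

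**Figure D1:**
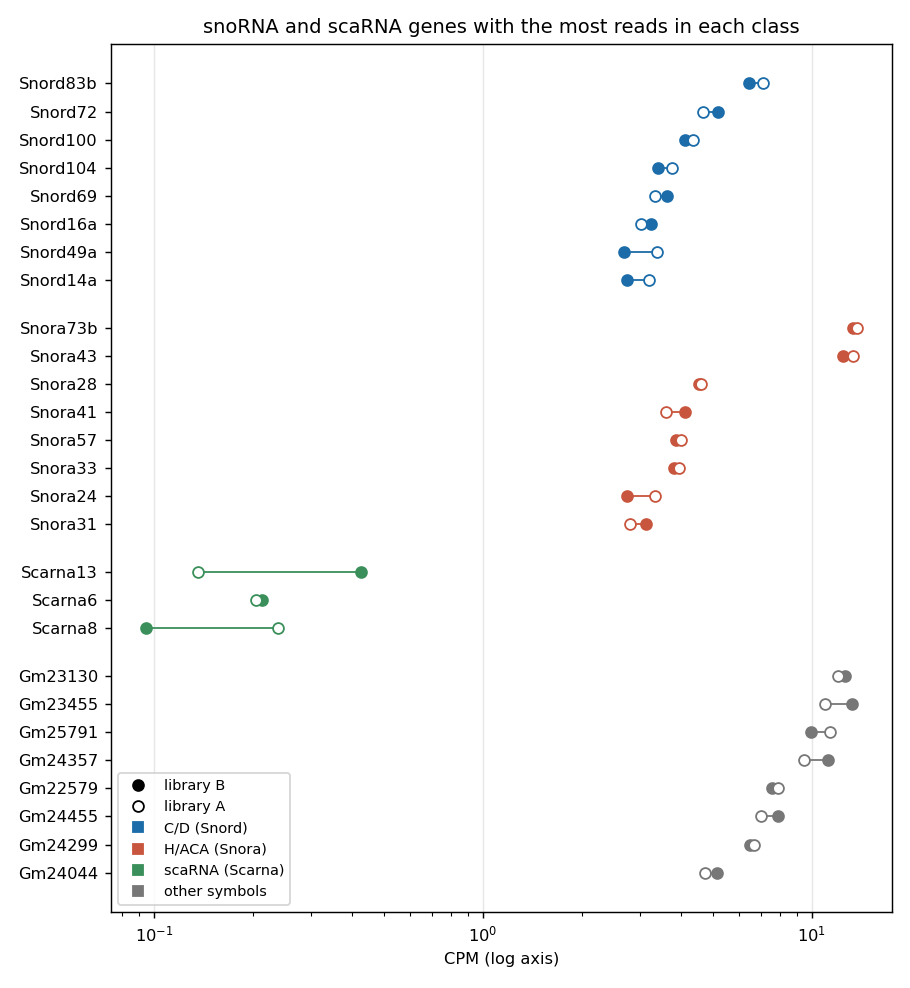
Level of the 8 members with the most reads in the C/D, H/ACA and other-symbol classes and of the 3 scaRNA members with at least 10 reads, on a log axis of CPM, with library B as filled and library A as open points joined by a line. Snora73b, Snora43, Gm23130 and Gm23455 reach 10 CPM or more in both libraries, and the scaRNAs stay below 1 CPM.

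Among the H/ACA members, Snora73b (ENSMUSG00000065353), a copy of the abundant U17 RNA that acts in the maturation of the small ribosomal subunit RNA, had 564 reads in B and 402 in A, or 13.4 CPM in B and 13.7 CPM in A. Snora43 (ENSMUSG00000097052) had 525 reads in B and 392 in A. Another annotated gene with the symbol Snora43 overlaps its span, and the part of this overlap in the counts was not tested. Snora73b and Snora43 stood apart from the rest of the class. Its next member, Snora28 in the translation initiation factor gene Eif5, had 192 reads in B and 135 in A. Snora41, in the elongation factor gene Eef1b2, had 174 reads in B and 106 in A, and Snora33, in the ribosomal protein gene Rps12, had 161 in B and 116 in A. Snora57 had 163 reads in B and 117 in A. Snora24, in the non-coding host Snhg8, had 116 in B and 98 in A, and Snora31, in Tpt1, had 132 in B and 82 in A. These last 6 genes lay close together, between 214 and 327 reads over both libraries.

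Among the C/D members, Snord83b (ENSMUSG00000077734), in an intron of the ribosomal protein gene Rpl3, led with 271 reads in B and 208 in A, or 6.42 CPM in B and 7.09 CPM in A. Snord72, in an intron of Rpl37, had 219 reads in B and 137 in A. Snord100, in Rps12, had 174 in B and 128 in A. The class fell off more evenly than the H/ACA class: the next 5 genes lay between 210 and 254 reads over both libraries. Of these, Snord104 had 144 reads in B and 110 in A, Snord69, in the nucleolar GTPase gene Gnl3, had 153 in B and 98 in A, and Snord16a, in Rpl4, had 137 in B and 89 in A. Snord49a, in the non-coding host 2410006H16Rik, had 113 reads in B and 99 in A. Snord14a, a U14 gene in Rps13 whose RNA acts in the cleavage and methylation of the small subunit precursor, had 116 in B and 94 in A. The gap between the first and the last of these 8 genes was thus narrower than in the H/ACA class.

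The scaRNAs were close to the limit of the counts. Scarna13, in the non-coding gene Snhg10, had 18 reads in B and 4 in A. Scarna6, in the autophagy gene Atg16l1, had 9 reads in B and 6 in A, and Scarna8, in the augmin subunit gene Haus6, had 4 in B and 7 in A. No order among the 3 can be read from these counts. Over both libraries Scarna3a had 7 reads and Scarna17 had 3, and the other Scarna genes had none. The scaRNA-biotype genes with the most reads were instead Gm22728, with 20 reads in B and 21 in A, and Gm24289, with 28 in B and 10 in A.

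A further set of snoRNAs is known to be made from promoters of their own, and these had few reads. By position, 3 of the U3 genes with reads lie in an intron of Tex14 and were counted among the intronic members with a host. U3, the processing snoRNA needed for early cuts of the ribosomal RNA precursor, has 5 Rnu3 genes in the files, of which 4 had reads, 16 in B and 11 in A. Snord118, the U8 RNA needed for the large subunit, had 2 reads in B and 3 in A, and Snord13, the U13 RNA, had 2 in B and 1 in A. Each of these lies at or near the level of a few single reads.

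Per kb of gene length the order of the members changed. Gm23130, a gene of 74 bases in Rps12 with 533 reads in B and 351 in A, led at 166 CPM per kb. It was followed by Gm24357 at 139 and Gm23455 at 121 CPM per kb, both in Taf1d. Snora43 and Gm24299 had 92.8 CPM per kb each, Gm25791 had 77.9, Snord83b 71.9 and Snora73b 66.0 CPM per kb. Snora73b therefore held the most reads without having the highest level for its length of 205 bases. Member CPM, not divided by length, had almost no rank correlation with length, given as a description. Spearman rho was -0.00685 over the 150 members with at least 10 reads, which share both libraries. Per kb, the median over all members was 5.60 CPM under 80 bases and 4.74 CPM at 80 to 99 bases. In the longer groups it was 0.392 to 1.62 CPM per kb.

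Host genes could be assigned to 237 members, as the same-strand gene that contains the member and has the most reads, and these lay in 173 hosts. There were 40 hosts with at least 2 members. Among the named kinds of host, ribosomal protein genes held the most member reads. In 23 such genes 39 members held 6094 reads, which is 30.5% of all member reads from 13.8% of the members. Translation factor genes held 9 members with 1208 reads, the Snhg hosts, long RNAs known mainly as snoRNA carriers, 7 members with 592 reads under this rule, and 166 members lay in other protein-coding genes with 9400 reads. The median member in a ribosomal protein gene had 105 reads, against 92 in the translation factor genes, 27 in the Snhg hosts and 9 in the other protein-coding hosts.

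Taf1d held more member reads than any other host. It codes for a subunit of the SL1 factor, with which RNA polymerase I starts ribosomal RNA transcription, and lies at chr9:15306214-15316991 on the plus strand. All 8 snoRNA genes annotated inside it had reads, 2629 in B and 1730 in A, together 21.8% of the reads of all members. Gm23455 had 558 reads in B and 321 in A, Gm24357 had 471 in B and 277 in A, and Gm25791 had 420 in B and 334 in A. Gm24455 had 334 reads in B and 205 in A, Gm22579 320 in B and 232 in A, and Gm24299 274 in B and 196 in A. Gm22620 had 185 reads in B and 114 in A, and Gm25500, the first in the gene, had 67 in B and 51 in A. Genes of 1 host transcript thus differed 7.45-fold in reads between the highest and the lowest. The 8 sequences are printed in the order of the gene to show that both box patterns stand side by side in 1 host, with the boxes in capitals as above.
Gm25500 (chr9:15312552-15312674, plus strand): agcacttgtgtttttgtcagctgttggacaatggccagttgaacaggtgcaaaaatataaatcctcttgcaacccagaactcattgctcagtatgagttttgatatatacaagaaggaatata
Gm24455 (chr9:15313802-15313932, plus strand): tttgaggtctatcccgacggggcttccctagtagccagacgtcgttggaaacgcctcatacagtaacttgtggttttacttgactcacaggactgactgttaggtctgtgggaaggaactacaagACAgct
Gm24299 (chr9:15314074-15314144, plus strand): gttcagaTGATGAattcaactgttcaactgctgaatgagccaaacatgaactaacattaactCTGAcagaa
Gm25791 (chr9:15314845-15314981, plus strand): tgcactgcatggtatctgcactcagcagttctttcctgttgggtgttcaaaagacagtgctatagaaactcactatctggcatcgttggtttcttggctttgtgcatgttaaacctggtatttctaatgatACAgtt
Gm22620 (chr9:15315189-15315321, plus strand): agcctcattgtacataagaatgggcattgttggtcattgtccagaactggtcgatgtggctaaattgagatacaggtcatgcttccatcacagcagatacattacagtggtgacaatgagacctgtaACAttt
Gm24357 (chr9:15315522-15315595, plus strand): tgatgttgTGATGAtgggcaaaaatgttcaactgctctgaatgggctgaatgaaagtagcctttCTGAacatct
Gm23455 (chr9:15316489-15316588, plus strand): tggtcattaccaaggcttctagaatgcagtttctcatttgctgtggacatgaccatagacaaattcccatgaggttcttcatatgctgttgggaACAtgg
Gm22579 (chr9:15316676-15316808, plus strand): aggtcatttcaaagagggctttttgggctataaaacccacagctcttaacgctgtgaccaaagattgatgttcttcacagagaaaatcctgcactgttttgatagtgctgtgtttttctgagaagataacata
Gm24299 and Gm24357 hold C and D boxes, and their last bases match the ACA box as well. Gm24455, Gm25791, Gm22620 and Gm23455 end in the ACA box without C and D boxes, and neither pattern was found in Gm25500 and Gm22579. The 2 short genes with C and D boxes and the 100-base Gm23455 were the highest of the 8 per kb.

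**Figure D2:**
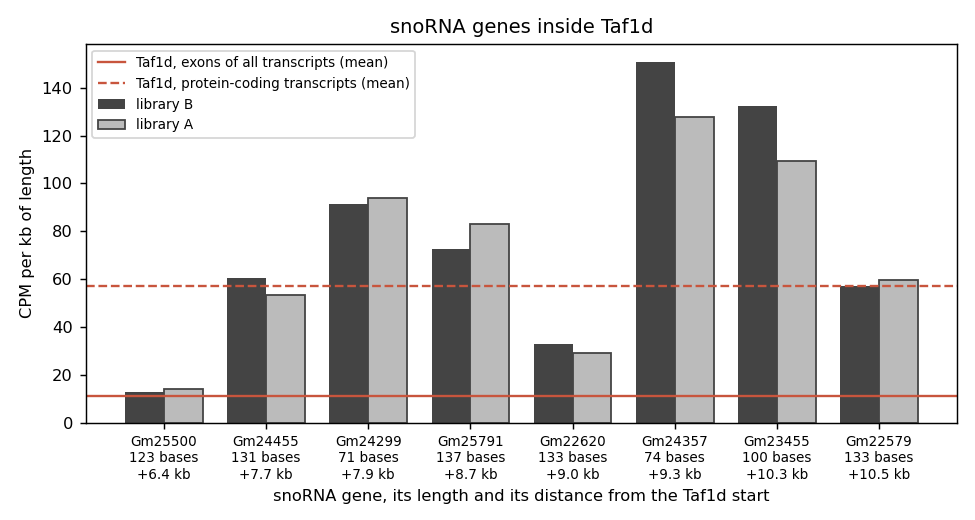
Level of the 8 snoRNA genes inside Taf1d in CPM per kb of their own length, in the order of the gene, with library B as dark and library A as light bars; the lines give the mean level of Taf1d itself per kb, over the exons of all its transcripts (solid) and of its protein-coding transcripts (dashed). Gm24357 and Gm23455 stand highest, and all 8 lie above the solid line while 3 lie below the dashed one on the mean of both libraries.

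How these genes compared with Taf1d itself depended on the length given to the host. Taf1d had 4413 reads in B and 2857 in A, or 101 ± 5.06 CPM. Over the 8949 bases of exons of all its transcripts, the 8 genes lay at 1.20 to 12.3 times the level of the host per kb. Over the 1769 bases of its protein-coding transcripts the range was 0.237 to 2.44 times. The annotated transcripts of Taf1d include ones that run through the snoRNA genes, so all 8 overlap an exon of the host. Gm25500 and Gm25791 each also overlap a further annotated short RNA gene. The sources used here do not say how a read over 2 overlapping genes was counted, and its part in these values was not tested.

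Rps12, a protein of the small ribosomal subunit, held the next largest sum, with 3 members and 868 reads in B and 595 in A. Gm23130 accounted for most of it: with 884 reads over both libraries it stood above Snord100 with 302 and Snora33 with 277. Snora73b and Snora73a, with 1076 reads, lie inside both Rcc1, the exchange factor of the GTPase Ran, and the non-coding host Snhg3, the shorter gene. The rule of most reads gave them to Rcc1, so the Snhg hosts above do not include them. Snora73a had 65 reads in B and 45 in A, so the 2 copies of U17 differed 8.78-fold. Snora73a is printed here to be set against Snora73b above, and another pair of copies, in Rpl4, beside it, because the counts of these pairs differ in how unequal they are.
Snora73a (chr4:132352775-132352979, minus strand): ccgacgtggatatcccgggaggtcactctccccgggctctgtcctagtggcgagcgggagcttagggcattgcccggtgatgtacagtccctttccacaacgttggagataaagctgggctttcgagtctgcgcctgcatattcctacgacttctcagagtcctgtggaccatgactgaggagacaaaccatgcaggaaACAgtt
Snord16a (chr9:64175423-64175521, plus strand): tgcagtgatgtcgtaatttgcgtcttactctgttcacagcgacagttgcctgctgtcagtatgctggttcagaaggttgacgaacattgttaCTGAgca
Gm23136 (chr9:64176661-64176759, plus strand): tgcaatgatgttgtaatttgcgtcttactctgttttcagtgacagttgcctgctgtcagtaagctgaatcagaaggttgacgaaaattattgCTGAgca
Snora73b and Snora73a differ at 7 positions by alignment and are 96.6% identical. Snord16a and Gm23136 differ at 11 positions and are 88.9% identical. Gm23136 had 89 reads in B and 72 in A, which is close to the 137 in B and 89 in A of Snord16a. Snora73a and Snord16a overlap an annotated same-strand exon, while Snora73b and Gm23136 lie in introns. The sources used here do not say how reads matching several places were treated.

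Near-identical copies were common among the members. In all, 54 members are at least 95% identical to another annotated snoRNA or scaRNA gene, and 13 of them are fully identical to one. These 54 hold 18.4% of the member reads, and their split between copies is uncertain. Identity did not make the counts alike: Gm22579 in Taf1d had 320 reads in B and 232 in A, while its fully identical copy Gm24539 on chromosome 13 had 2 in B and 4 in A. The part of read assignment in this difference was not tested.

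Rpl4, a protein of the large subunit, showed how wide the range within a highly expressed host can be. Its level was 3633 ± 47.1 CPM (SD, n = 2), the highest of the hosts named here. Its 5 members had from 18 to 299 reads over both libraries. Gm22571 led them with 166 reads in B and 133 in A. Per kb these members lay at 0.00199 to 0.0334 times the level of Rpl4. Rpl4 thus stood at the other end from Taf1d in the ratio of member to host level. Rpsa, a protein of the small subunit at 1155 ± 24.2 CPM, held 3 members with 291 reads in B and 205 in A. Gm24044 led these, with 217 reads in B and 139 in A, at 0.0869 times the level of Rpsa per kb.

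Over all members with at least 10 reads and a measured host, 139 genes, the ratio of member to host level per kb had a median of 0.142, an interquartile range of 0.0434 to 0.492 and a full range of 0.00199 to 12.3. The level of the member followed that of its host only loosely, with a Spearman rho of 0.194 across these genes. That value is a description, since the genes share both libraries and many share a host. There were 23 members above their host per kb, among them all 8 in Taf1d and all 3 in Rps12. Snord14a stood at 10.1 times the level of Rps13, Snora78 at 6.80 times that of Snhg9, which itself had 6 reads, and Snora16a at 1.03 times that of Snhg12. With the host length taken from protein-coding transcripts, a length chosen after the data were seen, 16 members were above their host and the median was 0.0991.

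**Figure D3:**
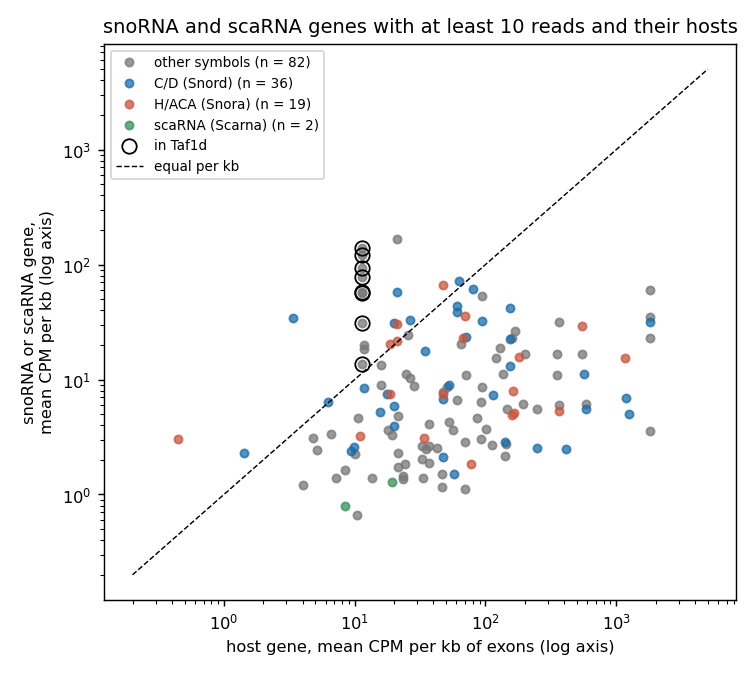
Level of 139 members with at least 10 reads against the level of their host, both as the mean of the libraries in CPM per kb on log axes, colored by class, with genes in Taf1d ringed and a dashed line of equal level. Most points lie below the line, 23 lie above it, and the 8 genes in Taf1d form a column above it.

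Some of the high ratios lie in hosts whose own reads were few beside those of their annotated pseudogenes. Rps13 had 649 reads over both libraries, while 7 pseudogenes of it had 13823. Rpl17 had 1119 reads beside 18324 in 7 pseudogenes, Rpl23a 1200 beside 16642 in 14, and Rps12 3059 beside 4442 in 22. Rpl3 had 14289 reads beside 117431 in 2, and Kansl2 5061 beside 6309 in 1. Rpl4, with 260405 reads and the low ratios, had 0 annotated pseudogenes of its name. By name alone, the same was true of Taf1d, Rcc1, Rps3a1, Snhg12, Snhg9, Gm15832 and 2700038G22Rik, which all hold members above their host. Without the ribosomal protein genes, 14 members stood above their host, and the median ratio of 0.142 was the same. The part of reads shared with pseudogenes in the ratios was not tested.

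Whether an intronic snoRNA or scaRNA gene had any read went with the level of its host. Leaving out the Snhg14 genes, described next, 2 of 57 intronic genes in hosts under 1 CPM had a read, which is 3.51% (0.428 to 12.1%). The share was 36.8% (16.3 to 61.6%) for 19 genes in hosts at 1 to under 10 CPM, 71.6% (62.1 to 79.8%) for 109 genes at 10 to under 100 CPM, and 93.3% (86.7 to 97.3%) for 105 genes at 100 CPM or more. The host levels are thus graded with the presence of a read. The loose correlation of levels given above is per kb, over members of any place with at least 10 reads. It is therefore not a like measure to set against these shares. The reads that chose the members enter these shares, so they are given with no test. Members with a read in hosts at 100 CPM or more had a median of 21 reads, against 8 in hosts at 10 to under 100 CPM.

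**Figure D4:**
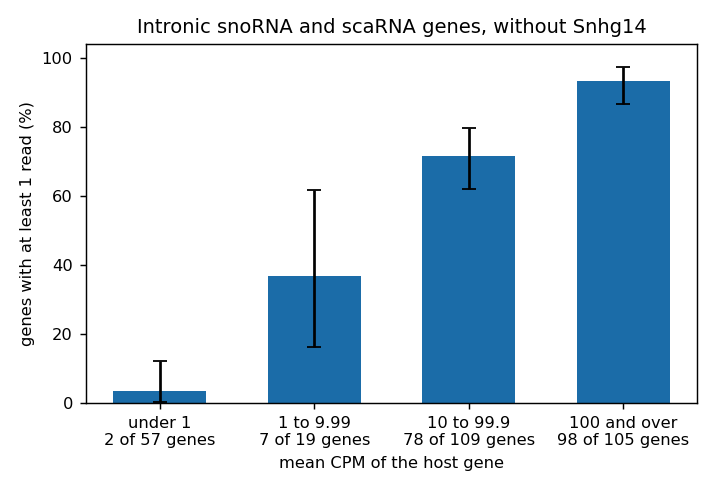
Share of intronic snoRNA and scaRNA genes with at least 1 read, in percent, by the mean CPM of the host gene, without the genes inside Snhg14; bars are the share and error bars the 95% Clopper-Pearson interval. The share is higher in each higher class of host level, from 3.51% of 57 genes to 93.3% of 105 genes.

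Snhg14 went against that grading. This long imprinted RNA of the Prader-Willi and Angelman region carries the brain-enriched Snord115 and Snord116 repeats, and 208 annotated genes lie inside it, with 85 distinct sequences among them. None of these 208 genes had a read, although Snhg14 itself had 2626 reads in B and 1756 in A, or 61.0 ± 1.66 CPM. With these genes counted, the share with a read in hosts at 10 to under 100 CPM was 24.8% of 315 genes. A count over the whole of Snhg14 does not show whether the stretch with the repeats was read. The other large imprinted snoRNA host, Rian, with 13 genes, had 5 members, with 37 reads in B and 22 in A. Gm24564 had the most of these, with 12 reads in B and 13 in A.

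The share of genes with a read is also given by where the gene lay. Of 516 genes in an intron of a same-strand gene 36.4% (32.3 to 40.8%) had a read, and of 160 genes overlapping a same-strand exon 30.6% (23.6 to 38.4%). Of the intronic genes, 206 lie in Snhg14 and none of these had a read, so the intronic share is higher without them. The share was 6.31% of 222 genes on the other strand of a gene (3.49 to 10.4%) and 5.10% of 627 genes in no gene (3.52 to 7.13%), again with no test, since the same reads chose the members. The exonic group was itself uneven. Of 83 genes that overlap only an exon of a further, non-coding transcript of a protein-coding gene, 39 had a read and together they held 8607 reads. Of 57 genes in exons of non-coding hosts, 4 had a read, with 432 reads in all.

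The snoRNAs of the classical non-coding hosts were mostly in the last of these groups. Gas5, a growth-arrest RNA with a snoRNA in nearly every intron, had 7631 reads in B and 5037 in A, or 176 ± 6.42 CPM. None of the 9 snoRNA genes inside it had a read, and all 9 overlap an annotated Gas5 exon. None of the 8 genes inside Snhg1 had a read, and the level of Snhg1 itself was not analysed here. In Snhg12, 1 of 4 genes did: Snora16a, whose span another annotated gene of the same symbol overlaps, had 120 reads in B and 89 in A. The genes inside Nop56 and Nop58, which code for core proteins of C/D particles, had reads in 1 of 5 cases in Nop56 and 3 of 4 in Nop58. The part of read counting over overlapping exons in these zeros was not tested.

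Members with no host were few but included some of the most read. There were 46, with 1928 reads, and 8 of these had at least 10 reads. Snora43 held 917 of the reads. In the RefSeq annotation of the same build the span of Snhg7 contains it, so its place outside any gene is that of GENCODE M21 alone. Likewise the RefSeq gene Gm36220 contains Snord104. Snora57, which GENCODE M21 places on the other strand of a gene only, lies within RefSeq spans of Lbhd1 and 5730408K05Rik. The strands of these RefSeq genes are not given here. Gm25432 on chromosome 19, with 159 reads in B and 134 in A, had no containing gene in either annotation.

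The letters of the numbered genes gave some class information that the symbols lack. Among the 204 members with other symbols, 88, or 43.1%, end in the ACA box, against 248 of all 1378 genes with such symbols in the files. Both C and D boxes were found in 32 of these members, or 15.7%, against 17.2% of the 1378 genes. Of 244 other-symbol genes with the ACA box alone 85 had a read, or 34.8% (28.9 to 41.2%), of 233 with the C and D boxes alone 29 did, or 12.4% (8.50 to 17.4%), and of 897 with neither pattern 87 did, or 9.70% (7.84 to 11.8%). These shares too are descriptions with no test. Genes inside Snhg14, where none of 208 genes had a read, were not left out of them. The part of that locus in the difference between the box groups was not tested. Of 4 such genes with both patterns 3 had reads, Gm23130, Gm24357 and Gm24299, which together held 2102 reads. As named classes, Snora genes held the ACA box in 82.9% and Snord genes held both C and D boxes in 69.1%, so not every named gene holds the boxes of its class in these windows.

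The members were about as long as the rest. The median member was 129 bases long, against 128 bases for all genes in the files, and members ran from 64 to 343 bases. Of 282 genes under 80 bases 22.3% (17.6 to 27.7%) had a read, and of 178 genes of 80 to 99 bases 32 did. Of the 31 genes of 200 bases or more 51.6% (33.1 to 69.8%) had a read. The longest genes thus had the highest share of the 3 groups given, with the genes inside Snhg14 left in. None of those 208 genes had a read, and their part in the shares by length was not tested. Members were on all autosomes and on X, with the most on chromosome 11, where 27 lie, and chromosome 9, where 24 lie.

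The libraries were compared gene by gene with an exact binomial test, two-sided, in which the reads of B were set against the share due from the scaled library sizes. The p-values were adjusted by Benjamini-Hochberg over all 18198 genes with at least 10 reads. With 1 library on each side this compares these libraries and not conditions, and it holds no estimate of the spread between libraries. Over all genes, 417 were called at an adjusted p under 0.05, or 2.29%, of which 237 were higher and 180 lower in B. Of the 150 members tested, 0 were called, and 133 members had too few reads to be tested. An unadjusted p under 0.05 was reached by 11 members, or 7.33%, against 2250 genes, or 12.4%, of all tested. With the coefficient of variation assumed to be 0.1, the exact test of edgeR also called 0 members, and 1 gene in all, the fibroblast marker Col3a1.

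The members scattered about equality, with 74 higher and 76 lower in B, a median log2 ratio of -0.01 and a range of -2.00 to 2.14. The widest differences came from genes with few reads. The smallest adjusted p of the exact binomial test among the members was 0.104. Snord17, in the sorting nexin gene Snx5, had 40 reads in B and 12 in A (log2 ratio 1.17, adjusted p of the exact binomial test 0.182). Gm23455, with 558 reads in B and 321 in A, had a log2 ratio of 0.27 and an adjusted p of 0.145 in the same exact binomial test. For Scarna13 the log2 ratio was 1.51 and the adjusted p of the exact binomial test 0.32. The members' own levels in the libraries ran closely together, with a Spearman rho of 0.926 across the 150 members, given as a description.

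The proteins that build and carry these RNAs were all well above 1 CPM. Of the C/D core, the methyltransferase fibrillarin (Fbl) had 97.5 CPM in B and 83.7 CPM in A. It was higher in B by the exact binomial test, with a log2 ratio of 0.22 and an adjusted p of 6.3e-07, the 1 gene of the core and processing lists to be called. The exact test of edgeR with a coefficient of variation of 0.1 did not call it. The scaffold proteins Nop58 and Nop56 had 509 ± 10.6 and 466 ± 1.12 CPM (SD, n = 2), and Snu13, which binds the kink formed by the C and D boxes, had 241 ± 6.25 CPM. Fbl was thus the lowest of the 4 by level, and per kb of exons too, at 21.5 CPM per kb against up to 114 for Nop56. Of the H/ACA core, the pseudouridine synthase Dkc1 had 369 ± 7.34 CPM, Nhp2 223 ± 1.56, Nop10 119.5 ± 0.65 and Gar1 71.0 ± 2.28 CPM.

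All 10 assembly factors reached 1 CPM in both libraries, from the box C/D assembly protein Znhit3 at 30.8 ± 0.268 CPM to the nucleolar chaperone Nolc1 at 409 ± 10.5 CPM. The helicase subunits Ruvbl2 and Ruvbl1 had 292 ± 2.49 and 73.2 ± 0.502 CPM, and the H/ACA factors Naf1 and Shq1 had 59.1 ± 1.91 and 35.7 ± 0.73 CPM. In the Cajal body list Smn1 had 71.5 ± 1.46 CPM, Wrap53, which carries scaRNAs there, 31.4 ± 2.47 and coilin (Coil) 21.7 ± 0.764 CPM. The enzymes of release and trimming were all present, with the exonuclease Xrn2 at 212 ± 5.71 CPM, the exosome enzymes Dis3 and Exosc10 at 151 ± 3.18 and 117 ± 0.539, and the lariat debranching enzyme Dbr1, which frees intron-coded snoRNAs, at 53.1 ± 0.29 CPM. Between the libraries, the smallest adjusted p of the exact binomial test among the H/ACA core, assembly, Cajal body and trimming genes was 0.0785, for Nolc1, and the widest log2 ratio of B over A was 0.16, for Wrap53.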

How the data were processed

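Poly-A RNA of 2 libraries of 1 group was sequenced. The deposited values are raw counts per Ensembl gene, 1 column per library, and the authors made them with STAR 2.4.2a and featureCounts 1.4.5-p1 on mm10, the tools and build named per the submitters' processing notes. The labels call the protocol reverse-stranded. The sources used here give neither the roles and settings of these tools nor the annotation release, and do not say how reads matching several genes or places were treated, which leaves the counts of overlapping, antisense or near-identical genes uncertain. Totals were 42322129 counts (B) and 29264632 (A).

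Biotypes, places, hosts, exon lengths and transcript sequences came from GENCODE M21 on GRCm38 (97.5% of IDs matched), and containing RefSeq genes from the RefSeq table of GRCm38.p6. Libraries were scaled by TMM (edgeR 4.0.16, R 4.3.3) on genes with at least 10 reads. Genes with at least 10 reads were tested by an exact binomial test with Benjamini-Hochberg adjustment at 0.05, which was tested on simulated data, and log2 ratios of B over A used 0.5 added reads. With 1 library on each side there is no replicate check, and p-values measure counting error only. Levels between genes are per kb, of the annotated gene for members and of merged exons for hosts. Shares have exact Clopper-Pearson 95% intervals. Identity came from edlib 1.3.9.post1, and the rest from scipy 1.17.1, pandas 2.3.3, numpy 2.4.6 and matplotlib 3.10.9 in Python 3.11.15. The alternatives included DESeq2 1.42.0 size factors.

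The members and lists were chosen with earlier results of these data known. The text names the 8 members with the most reads of each of the Snord, Snora and other-symbol classes, every Scarna member with at least 10 reads, any called member, the hosts of these, and the listed proteins and RNAs. The members of Rian, Rpl4, Rcc1, Taf1d, Snhg9, Snhg12 and Snx5 beyond that rule, the U3, U8 and U13 genes, Scarna3a, Scarna17, Gm22728, Gm24289, Gm24539 and Gm25432 were picked once their values had been seen. The list symbols Nhp2l1, Papd5, Rnu4atac and Rnu6atac had no match.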

Additional observations from a re-analysis of the deposited data

How the results depend on the processing

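No paired analysis was possible because both libraries belong to 1 group. The number of members was 234 to 262 from 1 library alone, 150 at a threshold of 10 reads and 79 by symbol alone, against 283. Their share of the counts was 0.0287% with mitochondrially encoded genes left out of the totals, against 0.0279%. The class sums kept their values under the other scalings, and without their leading gene they were 51.1 (C/D), 52.8 (H/ACA) and 0.525 CPM (scaRNA). Members called between the libraries stayed at 0 under all 5 alternatives, while all genes called ranged from 360 to 441 under other scalings and filters and were 1 with an assumed coefficient of variation of 0.1. The share of exonic genes with a read was 13.0% with exons of protein-coding transcripts alone and 21.2% at a threshold of 10 reads. That of intronic genes, with the Snhg14 genes counted, was 20.9% at a threshold of 10 reads. The median ratio of member to host per kb, 0.142, was 0.125 to 0.134 from 1 library alone, 0.134 with the shortest containing gene as host, 0.0639 for members with at least 1 read, 0.323 for those with at least 50 reads, 0.088 for members that overlap no exon of another gene, and 0.0991 with the host length from protein-coding transcripts. Of 23 members above their host, 14 lay outside ribosomal protein genes. The settings on host length, on ribosomal protein genes and on Snhg14 were chosen after seeing the data. The filter on reads sets the median ratio in part by its construction, since it keeps the members with high counts, and the cause of the other differences was not tested. Depth limits the 133 members under 10 reads, which were not tested, and 1 read is 0.0237 CPM in B and 0.0341 CPM in A. With the shortest containing gene as host, Snora73b and Snora73a belong to Snhg3.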

Other observations

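Other short structured RNAs without a poly-A tail had few reads. Of 12 such genes measured, 1 reached 1 CPM in both libraries: Rpph1, the RNA of RNase P, which trims transfer RNA ends, had 135 reads in B and 76 in A, or 2.89 ± 0.429 CPM (SD, n = 2). Rmrp, the RNA of the related RNase MRP, had 32 reads in B and 12 in A, and the telomerase RNA Terc, which ends in an H/ACA domain, had 10 in B and 5 in A. Rn7sk, which holds the elongation factor P-TEFb inactive, had 43 reads in B and 10 in A and was higher in B by the exact binomial test, with a log2 ratio of 1.53 and an adjusted p of 0.0489, just inside the threshold of 0.05. The exact test of edgeR with a coefficient of variation of 0.1 did not call it. Rn7s1, Rnu7 and Rny3 had 0 reads in both libraries, which allows up to 0.0711 CPM in B and 0.102 CPM in A for each. Together the 12 genes summed to 5.73 CPM in B and 3.82 CPM in A, while the 283 snoRNA and scaRNA members summed to 279.8 CPM in B and 278 CPM in A. The sums cover unlike numbers of genes, and only the members were chosen for having reads, so they do not compare levels per gene.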
